A study of Homo sapiens with 9 samples.

Results

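The HOX genes of the human glioblastoma cell line U251 were taken as all genes whose symbol is HOXA, HOXB, HOXC or HOXD followed by a number, which gave 39 of 22295 entries. They comprised 11 HOXA, 10 HOXB, 9 HOXC and 9 HOXD genes. HOX genes encode the homeodomain transcription factors that give cells their position along the body axis. They lie in 4 clusters, HOXA, HOXB, HOXC and HOXD, in which the genes are numbered by paralog group, so that genes of 1 group in different clusters descend from a common ancestor. Low-numbered genes at one end of a cluster are used anteriorly, in the hindbrain and neck, and high-numbered genes at the other end are used posteriorly, in the trunk, limbs and genital region, whereas the forebrain leaves all the clusters silent. Polycomb proteins keep HOX clusters repressed, trithorax proteins keep them active, retinoic acid switches on anterior HOX genes in the embryo, and several HOX genes are known to be active in glioblastoma although normal cortex lacks them.

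U251 is an established line, and its HOX genes were examined by RNA-seq of total RNA. All cells had been infected with a lentivirus carrying an sh-RNA and the marker M-cherry. The groups were sh-Luci-3d (a control sh-RNA against luciferase, 3 days post infection), sh-Ptbp1-3d (an sh-RNA against the splicing repressor gene PTBP1, 3 days post infection) and sh-Ptbp1-7d (the same sh-RNA, 7 days post infection), with 3 libraries each. By the study's protocol for reprogramming, infected cells were kept from 2 days post infection in a neuronal induction medium containing N2, B27, forskolin and dorsomorphin, so that sh-Ptbp1-7d would also have had more days in that medium. No sh-Luci library of day 7 was analysed here, and in every difference between sh-Ptbp1-7d and a day 3 group the length or presence of the knockdown, the additional days and the time in medium cannot be told apart.

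The values were FPKM (fragments mapped to a transcript, divided by its length and by the mapped fragments of the library), a level that allows for transcript length and may be set side by side between genes. They are not read counts, and whether they fall in steps of whole reads was not tested. Library depth is thus unknown and counting error has no interval here. Differences were tested with limma on log2(FPKM + 0.1), a scale that makes the fold changes of low genes look smaller than they are. A gene was called when its Benjamini-Hochberg adjusted p lay below the false discovery rate (FDR) of 0.05 in the comparison of both day 3 groups and of 0.01 in those with sh-Ptbp1-7d. Nothing in the labels says that the 3 libraries of a group came from separate cultures, so that p-values measure only the spread between these libraries, which may be technical.

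PTBP1 was at 116 ± 7.58 FPKM (n = 3, SD) with sh-Luci-3d, 63.9 ± 2.67 FPKM (n = 3, SD) with sh-Ptbp1-3d and 50.5 ± 0.645 FPKM (n = 3, SD) with sh-Ptbp1-7d. Of the markers of the line, VIM (vimentin) lay between 1094 and 4488 FPKM and SOX2 between 94.6 and 149 FPKM, whereas the astrocyte filament gene GFAP stayed between 0.109 and 1.15 FPKM and OLIG2 did not exceed 0.0433 FPKM. The summed level of 10 astroglial and glioma markers ran from 4461 to 4587 FPKM with sh-Luci-3d, from 4585 to 4880 FPKM with sh-Ptbp1-3d and from 1390 to 1512 FPKM with sh-Ptbp1-7d. The sum of 6 neuronal markers ran from 264 to 315 FPKM, from 333 to 352 FPKM and from 153 to 161 FPKM in the same order. The sum of 4 epithelial markers ran from 37.7 to 45.9 FPKM, from 39.4 to 41.3 FPKM and from 30.4 to 33.7 FPKM, and the sum of 5 blood and immune markers ran from 10.2 to 11.4 FPKM, from 10.7 to 11.3 FPKM and from 16.1 to 19.0 FPKM. CD3E was listed at 0 in all 9 libraries, and EPCAM, PTPRC and HBB did not exceed 0.316, 0.0903 and 0.0673 FPKM. The first 2 sums were carried by VIM and TUBB3, and other members went the other way: at day 7 MAP2 rose (log2 fold change 0.94 against sh-Ptbp1-3d, limma adjusted p = 0.00058), S100B rose from at most 0.225 FPKM at day 3 to at least 0.663 FPKM (limma adjusted p = 0.00202), and SOX2 was higher against sh-Luci-3d (0.46, limma adjusted p = 0.00184). These sums differed in sh-Ptbp1-7d, the group in which HOX genes changed in both directions, and their part in the HOX results was not tested. The library sh-Ptbp1-3d replicate 3 stood apart in several genes, with FABP7, an astroglial and glioma marker, at 14.99 FPKM (at most 2.19 FPKM elsewhere), STMN2 at 11.5 FPKM and DCX at 2.14 FPKM, whereas STMN2 was listed at 0 and DCX did not exceed 0.0346 FPKM in the other 8 libraries. The called genes of each list are therefore also counted without that library. In these bulk cultures fewer cells of a type and less RNA per cell cannot be told apart.

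Sequence upstream of the HOX genes is shown for the genes called at day 7 whose RefSeq window held a CCAAT box. The RefSeq promoter table (GRCh38.p14, 250 bases before the start searched) held 27 windows of 20 HOX genes. The letters CCAAT, read on either strand, were in the windows of 17 of these 20 genes and in 18 of the 27 windows, beside 32.0% of all 35116 windows in the table. CCAAT is the core of the box bound by the factor NF-Y. Each stretch below is 30 bases, 5′ to 3′ on the strand of the gene, and the capitals mark the box, read on the other strand unless stated. For HOXD12 the box reads on the strand of the gene itself. The first 4 lie upstream of genes that were called higher at day 7 (HOXD12 against sh-Luci-3d only). The last 2 lie upstream of genes that were called lower (HOXA7 against sh-Ptbp1-3d only). HOXD11, called against sh-Luci-3d as well, had a window without these letters.
HOXD3: cccgaccacgtgATTGGcgaaataattaat
HOXD4: tgctccctcgccATTGGctggcctggtcac
HOXD10: ttttcaaatctcATTGGcttggttgtcatg
HOXD12: gcaaagtttcgtCCAATcgtctgagcctgt
HOXC4 and HOXC5: ctcacaagttggATTGGccacaagaagtca
HOXA7: aggactgctgagATTGGcggaggcggtcat
The HOXD3 stretch is chr2:176157254-176157283 on the plus strand, inside the HOXD3 gene as GENCODE v29 draws it but in no exon. The HOXD4 stretch is chr2:176151500-176151529 and the HOXD10 stretch is chr2:176116707-176116736, both on the plus strand. Both overlap an annotated exon of the gene itself (for HOXD4 also of AC009336.2). The HOXD12 stretch is chr2:176099711-176099740 on the plus strand and overlaps a HOXD12 exon only in part. GENCODE v29 starts that gene at chr2:176099730, after the box. The HOXC4 and HOXC5 stretch, chr12:54016799-54016828 on the plus strand, is 1 site that both genes share because RefSeq lists a common start for them. It overlaps an exon of HOXC6. GENCODE v29 starts HOXC5 farther downstream, at chr12:54032853, and the shared window was counted for each gene above. The HOXA7 stretch is chr7:27156690-27156719 on the minus strand and overlaps a HOXA7 exon. The box was thus present upstream of genes that changed in opposite directions, and a match of letters is a description of the window and not a bound site. The other letters were also searched on both strands of the 27 windows. TGATNNAT, the composite site of HOX and PBX proteins, was in 3 windows (11.1%) beside 6.47% of all windows, and TTTATG, read by posterior HOX and CDX proteins, was in 3 (11.1%) beside 9.64%. TATAAA was in 5 windows (18.5%) beside 10.7%, and the retinoid receptor half-site AGGTCA in 0 beside 12.1%. The median HOX window held 19 CpG dinucleotides beside 11 over all windows, with a GC content of 58.8% beside 58.0%.

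U251 expressed members of every cluster, from anterior to posterior genes. The HOX genes together made up between 0.0603% and 0.0731% of the summed FPKM of a library. A mean of 0.1 FPKM over all libraries, the limit for testing, was reached by 30 of the 39 genes, and 23 had a group mean of at least 1 FPKM. The 7 genes whose mean reached 10 FPKM were HOXD11, HOXB3, HOXC10, HOXD10, HOXB7, HOXD4 and HOXD9. The 9 genes below the limit were HOXA2, HOXA9, HOXA10, HOXB1, HOXB5, HOXC11, HOXC12, HOXD1 and HOXD13. Of these, HOXA10, HOXB1, HOXC11 and HOXC12 were listed at 0 in all 9 libraries, HOXA9 was listed at 0 in 8 of them, and HOXA2, HOXB5, HOXD1 and HOXD13 did not exceed 0.177 FPKM in any library. Low and high genes were neighbours: HOXC10 stood at 28.2 FPKM over all libraries next to HOXC11 at 0, and HOXB3 at 41.1 FPKM next to HOXB2 at 0.192 FPKM.

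**Figure D1:**
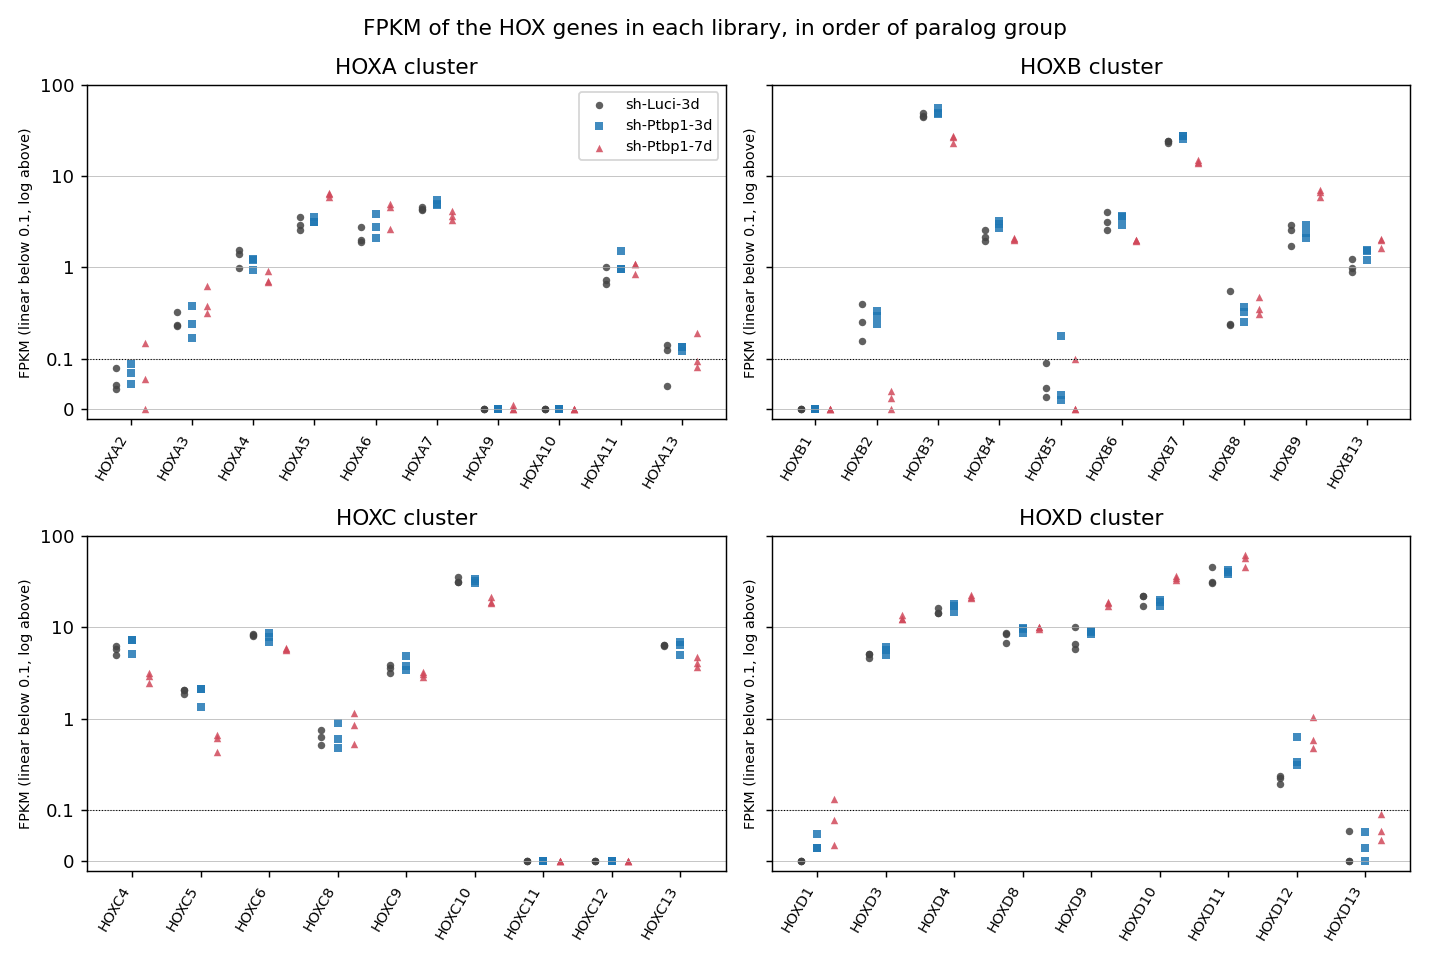
FPKM of the HOX genes reported here in the 9 libraries, by cluster and in order of paralog group (x axis); the y axis is linear below 0.1 FPKM and logarithmic above, and each point is 1 library. The sh-Ptbp1-7d triangles sit apart from the day 3 points for HOXB3, HOXB7, HOXB9, HOXC4, HOXC5, HOXC10, HOXD3, HOXD9 and HOXD10, and HOXA10, HOXB1, HOXC11 and HOXC12 lie at 0.

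The leading HOX gene differed between day 3 and day 7. In sh-Luci-3d the order of group means was HOXB3 (46.5 FPKM), HOXD11 (36.02 FPKM), HOXC10 (32.9 FPKM), HOXB7 (23.96 FPKM) and HOXD10 (20.6 FPKM), and the libraries of HOXB3 and HOXD11, and of HOXD11 and HOXC10, overlapped. The order was the same in sh-Ptbp1-3d, from HOXB3 at 50.8 FPKM to HOXD10 at 18.7 FPKM, without overlap between neighbours. In sh-Ptbp1-7d the order was HOXD11 (55.1 FPKM), HOXD10 (34.98 FPKM), HOXB3 (25.8 FPKM), HOXD4 (21.7 FPKM) and HOXC10 (19.6 FPKM), and of these neighbours only HOXD4 and HOXC10 overlapped.

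The gene models themselves limit how exactly reads can be given to 1 member. On GRCh38 the HOXA genes lie on the minus strand of chromosome 7 (chr7:27092993-27200106), the HOXB genes on the minus strand of chromosome 17 (chr17:48528526-48729178), the HOXC genes on the plus strand of chromosome 12 (chr12:53938765-54056030) and the HOXD genes on the plus strand of chromosome 2 (chr2:176092891-176190907). The clusters span 107.1, 200.7, 117.3 and 98.0 kb. In GENCODE v29, 22 of the 39 genes overlap another HOX gene on the same strand and 25 overlap a gene on the opposite strand. HOXB3 extends over 56.0 kb and contains HOXB4 and HOXB5, and HOXB7 extends over 26.3 kb and contains HOXB8 and HOXB9. HOXC4 extends over 39.1 kb with HOXC5 inside it, and HOXD3 over 36.5 kb with HOXD4 inside it. HOXA3, over 46.4 kb, contains HOXA4, HOXA5 and HOXA6. HOXC6, over 40.2 kb, contains HOXC8 and HOXC9 and overlaps HOXC4. HOXB6 overlaps HOXB3, and HOXD10 overlaps HOXD11. Whether the counting used strand, and how it divided reads between overlapping genes, is not given in the sources used here, and the division of reads between such neighbours is uncertain.

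The comparison of sh-Ptbp1-3d with sh-Luci-3d asks whether the HOX genes differ with the knockdown on the same day. None of the 30 genes tested was called, beside 0.0322% of all 15551 features tested (limma). At an unadjusted p under 0.05 there were 4, HOXB4, HOXB7, HOXB13 and HOXD8, beside 7.24% of all features, and all 4 were higher in sh-Ptbp1-3d. The median log2 fold change of the 30 genes was 0.13, beside 0.01 over all features. Group libraries did not overlap for 5 genes, HOXA7, HOXB4, HOXB7, HOXD8 and HOXD12, all higher in sh-Ptbp1-3d, beside 10.8% of all features in either direction and 5.86% higher.

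HOXB4, a factor known for expanding blood stem cells, gave the lowest unadjusted p. It was at 1.94, 2.18 and 2.57 FPKM with sh-Luci-3d and at 3.24, 3.03 and 2.67 FPKM with sh-Ptbp1-3d, a log2 fold change of 0.41 (SE 0.14, limma adjusted p = 0.602). The lowest sh-Ptbp1-3d library was just above the highest sh-Luci-3d library. HOXD9 was the only HOX gene called in any alternative at day 3. Its sh-Luci-3d libraries were at 6.56, 5.81 and 10.2 FPKM and its sh-Ptbp1-3d libraries at 8.96, 9.06 and 8.42 FPKM, so that 1 control library lay above all the others. Without that library, sh-Luci-3d replicate 3, the log2 fold change of HOXD9 was 0.51 with a limma adjusted p of 0.0125, whereas it was 0.27 with an adjusted p of 0.776 over all libraries. Without that control library, 1 HOX cofactor, 3 chromatin regulators and 2 flanking genes of the lists below were called as well. The share of all features in that run is not given here, so that the call of HOXD9 cannot be read as particular to HOX genes. Without sh-Ptbp1-3d replicate 3 the count of called HOX genes at day 3 remained 0.

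From day 3 to day 7 of the knockdown, 4 of 7 tested HOXD genes rose, 5 of 7 HOXC genes and 5 of 8 HOXB genes fell, and 2 HOXA genes changed in opposite directions. Of the 30 genes tested, 17 were called (limma), beside 35.8% of all features. The 6 that rose were HOXA5, HOXB9, HOXD3, HOXD4, HOXD9 and HOXD10, beside 20.3% of all features, and the 11 that fell were HOXA7, HOXB2, HOXB3, HOXB4, HOXB6, HOXB7, HOXC4, HOXC5, HOXC6, HOXC10 and HOXC13, beside 15.5%. A fold change above 2 as well was reached by 6, HOXB9, HOXD3 and HOXD9 upwards and HOXB2, HOXC4 and HOXC5 downwards, beside 14.2% of all features (8.31% upwards and 5.9% downwards). The libraries did not overlap for 22 genes, beside 62.3%. Without sh-Ptbp1-3d replicate 3, 14 genes were called, beside 28% of all features, and HOXA7, HOXB4 and HOXD4 were not among them. Without sh-Ptbp1-3d replicate 2, 11 were called, and HOXA7, HOXB4, HOXB6, HOXC6, HOXC13 and HOXD4 were not among them. The share of all features in that run is not given here, so that the fall to 11 cannot be read as particular to HOX genes.

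Against sh-Luci-3d, 18 of the 30 genes were called at day 7, 9 higher and 9 lower, beside 35.6% of all features (20.6% higher and 15% lower). Leaving out sh-Ptbp1-3d replicate 3 gave 16, beside 33.1%, with HOXD11 (limma adjusted p = 0.0157) and HOXD12 (limma adjusted p = 0.011) no longer called. Past a fold of 2 were 7, with HOXA5, HOXB9, HOXD3, HOXD9 and HOXD12 higher and HOXB2 and HOXC5 lower, beside 14.6% (8.93% higher and 5.68% lower). The libraries did not overlap for 21 genes, beside 55.9%. Both comparisons share the sh-Ptbp1-7d libraries and are therefore not independent of each other. The genes called against sh-Ptbp1-3d and not against sh-Luci-3d were HOXA7 and HOXB4, and those called against sh-Luci-3d and not against sh-Ptbp1-3d were HOXB13, HOXD11 and HOXD12. The median log2 fold change of the 30 genes was 0.0023 against sh-Ptbp1-3d and 0.24 against sh-Luci-3d, beside 0.092 and 0.099 over all features. When the limit for testing was raised to 1 FPKM, both medians were below 0, at -0.39 and -0.16.

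**Figure D2:**
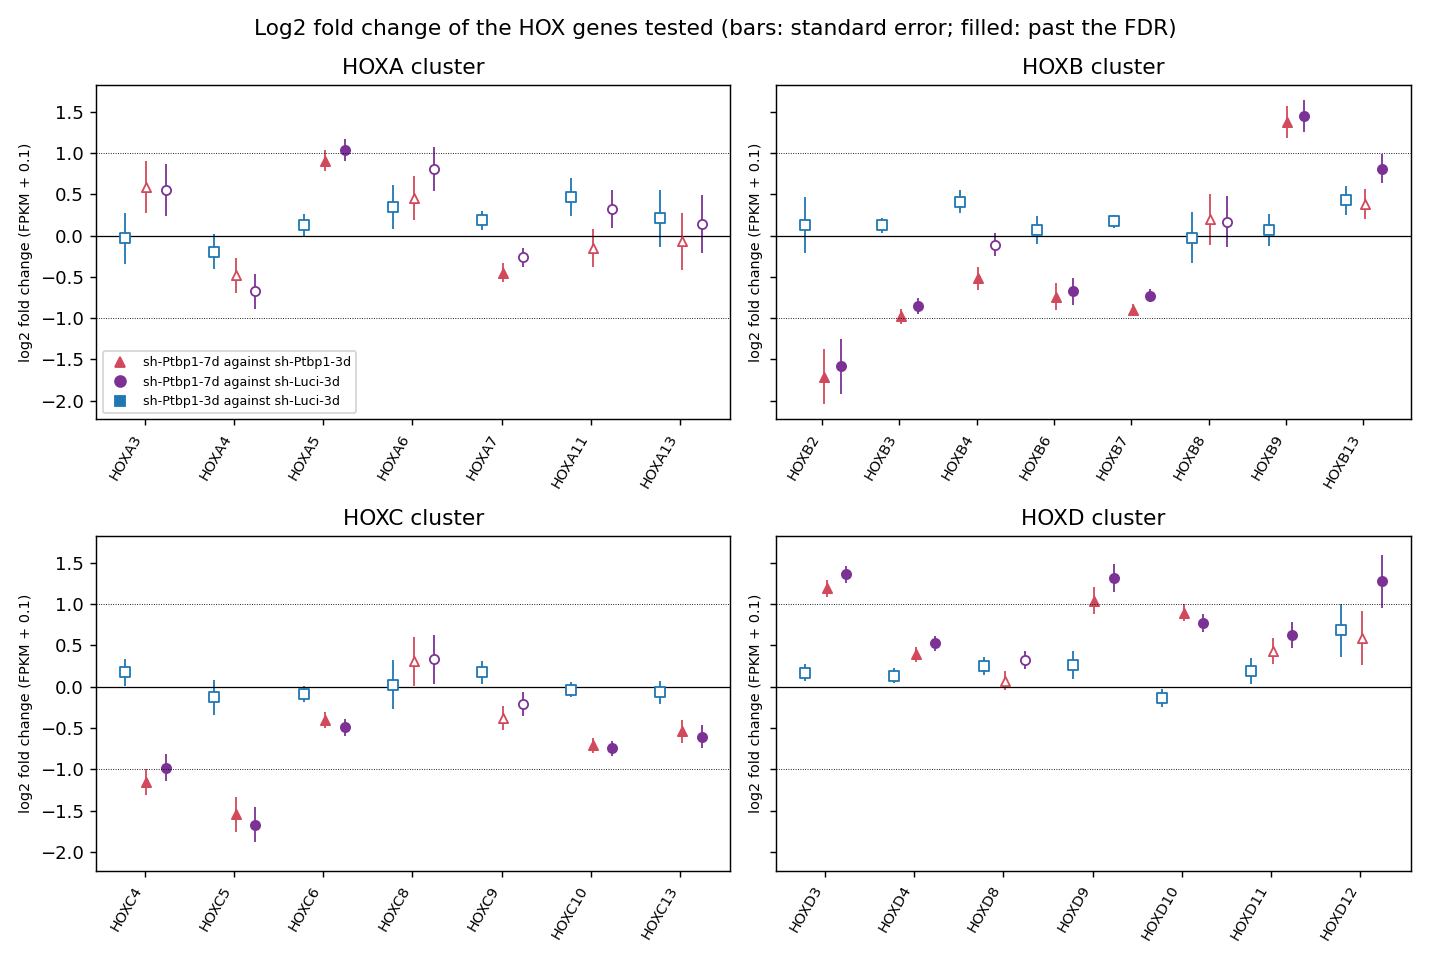
Log2 fold change (y axis, on FPKM + 0.1) of the HOX genes tested and reported here, by cluster and in order of paralog group, for the 3 comparisons; bars are limma standard errors, filled symbols are past the FDR and dotted lines mark a fold of 2. At day 7 every filled symbol lies above 0 in the HOXD panel and below 0 in the HOXC panel, whereas the squares of the day 3 comparison are all open.

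The HOXD cluster had 4 of 7 tested genes higher and 0 lower against sh-Ptbp1-3d, and 6 higher and 0 lower against sh-Luci-3d, beside 20.3% and 20.6% of all features higher. The medians of their log2 fold changes were 0.59 and 0.77. HOXD3, an anterior gene known for regulating adhesion molecules, was at 4.60, 5.07 and 5.08 FPKM with sh-Luci-3d, 6.13, 4.93 and 5.62 FPKM with sh-Ptbp1-3d and 12.2, 13.6 and 12.5 FPKM with sh-Ptbp1-7d. Every day 7 library was above every day 3 library, and its log2 fold change was 1.19 (SE 0.11, limma adjusted p = 6.23e-06) against sh-Ptbp1-3d and 1.36 against sh-Luci-3d. HOXD4, which lies within the HOXD3 gene, was at 14.5, 14.6 and 16.1 FPKM, 17.9, 17.1 and 14.7 FPKM and 21.4, 22.8 and 20.8 FPKM in the same order. The day 7 libraries did not overlap with the others, with a log2 fold change of 0.39 (SE 0.0933, limma adjusted p = 0.00526) that was past the FDR in 14 of 20 alternatives.

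HOXD9 and HOXD10, posterior genes used in the limb and the lumbar spinal cord, rose together. HOXD9 reached 18.99, 17.4 and 18.5 FPKM at day 7, and its level in sh-Ptbp1-7d was 207% of that in sh-Ptbp1-3d (log2 fold change 1.04, SE 0.17, limma adjusted p = 0.000462). HOXD10, which is also known as a tumour suppressor target of miR-10b, was at 22.3, 22.3 and 17.4 FPKM, 18.8, 20.1 and 17.4 FPKM and 33.2, 34.7 and 37.01 FPKM, with a log2 fold change of 0.90 (SE 0.11, limma adjusted p = 5.65e-05). No day 3 library of either gene reached a day 7 library. HOXD11, the member with the highest mean, was at 31.4, 30.5 and 46.2 FPKM, 40.7, 42.1 and 38.1 FPKM and 61.6, 57.7 and 45.9 FPKM. One sh-Luci-3d library was above the lowest day 7 library, whereas all day 7 libraries lay above those of sh-Ptbp1-3d. HOXD11 was called against sh-Luci-3d (log2 fold change 0.63, limma adjusted p = 0.00695, past the FDR in 8 of 20 alternatives). Against sh-Ptbp1-3d it was not called (0.44, limma adjusted p = 0.0385) but was past the FDR in 2 of 20 alternatives. These were the compared groups alone (limma adjusted p = 0.00789) and the run without sh-Luci-3d replicate 3 (limma adjusted p = 0.00431).

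The remaining HOXD genes were HOXD8 and HOXD12. HOXD8 was at 8.44, 6.75 and 8.60 FPKM, 9.93, 9.71 and 8.61 FPKM and 9.69, 10.04 and 10.01 FPKM, and differed by 0.08 on the log2 scale against sh-Ptbp1-3d (limma adjusted p = 0.596). Its day 7 libraries overlapped with those of sh-Ptbp1-3d but lay above those of sh-Luci-3d. The difference from sh-Luci-3d missed the FDR (log2 fold change 0.33, limma adjusted p = 0.0294, past the FDR in 1 of 20 alternatives). HOXD12, a gene of the digits and genital region, was at 0.191, 0.238 and 0.221 FPKM, 0.635, 0.313 and 0.333 FPKM and 1.05, 0.474 and 0.582 FPKM, and was called only against sh-Luci-3d (log2 fold change 1.28, SE 0.32, limma adjusted p = 0.00712). Its sh-Luci-3d libraries lay below all the others, and the call was made in 9 of 19 alternatives.

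The HOXC cluster had 5 of 7 tested genes lower and 0 higher in both comparisons, beside 15.5% and 15% of all features lower, and the medians of their log2 fold changes were -0.54 against sh-Ptbp1-3d and -0.60 against sh-Luci-3d. HOXC5 was at 2.09, 1.88 and 2.05 FPKM with sh-Luci-3d, 1.35, 2.11 and 2.13 FPKM with sh-Ptbp1-3d and 0.663, 0.614 and 0.433 FPKM with sh-Ptbp1-7d. Its day 7 level was 30.6% of that in sh-Ptbp1-3d, with no overlap between libraries (log2 fold change -1.54, SE 0.21, limma adjusted p = 0.000145). HOXC4, which contains HOXC5 and shares the stretch of sequence printed above, was at 5.79, 5.003 and 6.33 FPKM, 7.20, 7.23 and 5.07 FPKM and 2.45, 2.93 and 3.15 FPKM. All 3 day 7 libraries were below all day 3 libraries, and the log2 fold change was -1.15 (SE 0.16, limma adjusted p = 0.000177).

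HOXC10, a gene of the lumbar spinal cord and the most abundant HOXC gene, was at 31.6, 31.3 and 35.9 FPKM, 31.96, 33.6 and 30.8 FPKM and 18.5, 21.4 and 18.9 FPKM. It fell to 61.1% of the sh-Ptbp1-3d level without overlap (log2 fold change -0.71, SE 0.0877, limma adjusted p = 6.84e-05). HOXC6 was at 8.17, 8.11 and 8.49 FPKM, 7.81, 8.67 and 6.90 FPKM and 5.86, 5.69 and 6.01 FPKM, with all day 7 libraries below the rest, and its log2 fold change was -0.40 (limma adjusted p = 0.00687, past the FDR in 11 of 20 alternatives). HOXC13, known for hair and nail formation, was at 6.35, 6.35 and 6.29 FPKM, 6.92, 6.36 and 5.02 FPKM and 3.64, 4.79 and 4.04 FPKM. Its day 7 libraries were again the lowest, and its log2 fold change of -0.54 (limma adjusted p = 0.00808) was past the FDR in 9 of 20 alternatives. HOXC9 was at 3.19, 3.88 and 3.59 FPKM, 3.82, 4.86 and 3.46 FPKM and 2.87, 3.10 and 3.21 FPKM and missed the FDR (log2 fold change -0.38, limma adjusted p = 0.0464). HOXC8, at 0.480 to 1.16 FPKM, also missed it, with overlapping libraries.

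The HOXB cluster had 5 of 8 tested genes lower and 1 higher against sh-Ptbp1-3d, and 4 lower and 2 higher against sh-Luci-3d, beside the same shares of all features, and the medians of their log2 fold changes were -0.63 and -0.39. HOXB3, an anterior gene of the hindbrain, was at 45.5, 44.9 and 49.2 FPKM with sh-Luci-3d, 49.02, 55.2 and 48.2 FPKM with sh-Ptbp1-3d and 27.6, 26.9 and 22.9 FPKM with sh-Ptbp1-7d. The day 7 level was 50.8% of that in sh-Ptbp1-3d, and no library of one day reached those of the other (log2 fold change -0.98, SE 0.0926, limma adjusted p = 9.85e-06). HOXB7 was at 23.3, 24.2 and 24.4 FPKM, 27.9, 25.4 and 27.7 FPKM and 13.8, 14.5 and 14.99 FPKM. Its libraries separated in the same way, with a log2 fold change of -0.90 (SE 0.0748, limma adjusted p = 3.95e-06).

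HOXB2, another gene of the hindbrain, was low in every library, at 0.252, 0.156 and 0.394 FPKM, 0.336, 0.293 and 0.237 FPKM and 0, 0.0353 and 0.0224 FPKM. One day 7 library was listed at 0, all 3 lay below every day 3 library, and the day 7 level was 6.67% of that in sh-Ptbp1-3d. On the scale with the pseudocount the log2 fold change was -1.71 (SE 0.33, limma adjusted p = 0.00161), and it ran from -0.34 with a pseudocount of 1 FPKM to -3.59 with 0.01 FPKM. HOXB6 was at 3.17, 2.59 and 4.02 FPKM, 3.60, 3.65 and 2.89 FPKM and 1.99, 1.98 and 1.94 FPKM, and HOXB4, given above for day 3, was at 2.01, 2.03 and 2.08 FPKM at day 7. HOXB6 fell without overlap against both day 3 groups (log2 fold change -0.74 against sh-Ptbp1-3d, limma adjusted p = 0.00358, past the FDR in 15 of 20 alternatives, and in 12 of 20 against sh-Luci-3d). HOXB4 was lower than in sh-Ptbp1-3d (log2 fold change -0.52, limma adjusted p = 0.00987, past the FDR in 9 of 20 alternatives) but overlapped with sh-Luci-3d (-0.11, limma adjusted p = 0.53).

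HOXB9, a posterior gene of the thorax, went the other way. It was at 1.70, 2.91 and 2.56 FPKM with sh-Luci-3d, 2.93, 2.11 and 2.36 FPKM with sh-Ptbp1-3d and 7.03, 6.69 and 5.90 FPKM with sh-Ptbp1-7d, and its day 7 level was 265% of that in sh-Ptbp1-3d. No day 3 library reached a day 7 library (log2 fold change 1.38, SE 0.19, limma adjusted p = 0.000177), although HOXB9 lies inside the HOXB7 gene, which fell. HOXB13, best known from the prostate, was at 0.887, 0.997 and 1.23 FPKM, 1.55, 1.53 and 1.20 FPKM and 1.64, 2.02 and 1.99 FPKM. It was higher against sh-Luci-3d, without overlap (log2 fold change 0.81, limma adjusted p = 0.00315, past the FDR in 15 of 20 alternatives), and missed the FDR against sh-Ptbp1-3d (0.38, limma adjusted p = 0.0955). HOXB8, at 0.234 to 0.548 FPKM, was not called in either comparison.

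The HOXA cluster had 1 gene higher and 1 lower of 8 tested against sh-Ptbp1-3d, and 1 higher and 0 lower against sh-Luci-3d, beside 35.8% and 35.6% of all features called. With 8 genes and no test between clusters, these counts do not set HOXA apart. HOXA5, known for lung development, was at 2.58, 3.54 and 2.91 FPKM with sh-Luci-3d, 3.15, 3.53 and 3.14 FPKM with sh-Ptbp1-3d and 6.31, 5.87 and 6.48 FPKM with sh-Ptbp1-7d. All day 7 libraries were far above those of day 3 (log2 fold change 0.91, SE 0.13, limma adjusted p = 0.000205). HOXA7 was at 4.29, 4.57 and 4.42 FPKM, 5.44, 4.91 and 4.81 FPKM and 4.14, 3.29 and 3.63 FPKM. It was highest in sh-Ptbp1-3d, and its decrease from there (log2 fold change -0.45, SE 0.11, limma adjusted p = 0.00761) was past the FDR in 9 of 20 alternatives.

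HOXA4 was at 0.984, 1.57 and 1.39 FPKM, 1.21, 1.23 and 0.926 FPKM and 0.718, 0.700 and 0.906 FPKM, and HOXA6 at 2.01, 1.90 and 2.75 FPKM, 3.83, 2.77 and 2.09 FPKM and 4.54, 4.91 and 2.63 FPKM. Against sh-Ptbp1-3d, the log2 fold change of HOXA4 was -0.48 (limma adjusted p = 0.0795) and that of HOXA6 was 0.45 (limma adjusted p = 0.184). The day 7 libraries of HOXA4 lay below those of both day 3 groups, whereas those of HOXA6 overlapped with them. HOXA11, known from the limb and uterus, was at 0.653, 0.720 and 1.02 FPKM, 0.970, 1.51 and 0.959 FPKM and 1.09, 1.08 and 0.847 FPKM, with overlapping libraries. HOXA3 and HOXA13, none of whose libraries exceeded 0.624 FPKM, were not called.

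Read by paralog group, 7 groups had more than 1 called member against sh-Ptbp1-3d, and in 4 of these the members went in opposite directions. In group 3, HOXB3 fell and HOXD3 rose, with log2 fold changes against sh-Ptbp1-3d of -0.98 and 1.19. In group 4, HOXB4 and HOXC4 fell and HOXD4 rose. In group 5, HOXA5 rose and HOXC5 fell, and in group 10, HOXC10 fell and HOXD10 rose. In group 6, HOXB6 and HOXC6 both fell, in group 7, HOXA7 and HOXB7 both fell, and in group 9, HOXB9 and HOXD9 both rose. Of 5 anterior genes tested (groups 1 to 3), 1 rose and 2 fell, of 14 central genes (groups 4 to 8), 2 rose and 7 fell, and of 11 posterior genes (groups 9 to 13), 3 rose and 2 fell, beside 20.3% higher and 15.5% lower of all features. These counts are a description, and neither clusters nor classes were tested against each other.

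The clusters summed to different shares of the HOX RNA at day 7. The summed HOXD level was 87.96, 85.2 and 104 FPKM in the sh-Luci-3d libraries, 103, 103 and 93.3 FPKM with sh-Ptbp1-3d and 158, 157 and 145 FPKM with sh-Ptbp1-7d, and the summed HOXB level was 77.01, 78.3 and 84.99 FPKM, 89.04, 91.7 and 85.5 FPKM and 54.4, 54.5 and 50.4 FPKM. HOXC summed to 59.4 ± 3.48 FPKM (SD, n = 3), 59.1 ± 4.89 FPKM and 36.9 ± 2.18 FPKM, and HOXA to 12.7 ± 1.14 FPKM, 14.4 ± 1.36 FPKM and 17.2 ± 1.07 FPKM. For all 4 clusters the day 7 libraries lay entirely outside the range of both day 3 groups, above it for HOXA and HOXD and below it for HOXB and HOXC. The sum over all 39 genes was 244 ± 18.1 FPKM (n = 3, SD) with sh-Luci-3d, 262 ± 14.7 FPKM with sh-Ptbp1-3d and 261 ± 11.1 FPKM with sh-Ptbp1-7d, and these means differed by less than the SD of sh-Luci-3d. The summed FPKM of a whole library was lower in every day 7 library than in any day 3 library. Of it, the HOX genes made up 0.0604%, 0.0603% and 0.0660% with sh-Luci-3d. With sh-Ptbp1-3d this was 0.0662%, 0.0676% and 0.0635%, and with sh-Ptbp1-7d 0.0724%, 0.0731% and 0.0655%. The share of HOXD in the sum over all 39 genes was 37.7 ± 1.34% (SD, n = 3), 38.1 ± 0.441% and 58.9 ± 0.586%, and the share of HOXB was 32.8 ± 0.719%, 33.9 ± 0.817% and 20.4 ± 0.0924%. Within HOXB, the anterior genes summed to 51.1 ± 3.84 FPKM with sh-Ptbp1-3d and 25.8 ± 2.53 FPKM with sh-Ptbp1-7d, nearly all of it HOXB3 (50.8 and 25.8 FPKM). The central HOXB genes summed to 33.7 ± 1.36 FPKM and 18.9 ± 0.711 FPKM in the same order. The posterior genes HOXB9 and HOXB13 summed to 3.89 ± 0.509 FPKM and 8.42 ± 0.467 FPKM.

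**Figure D3:**
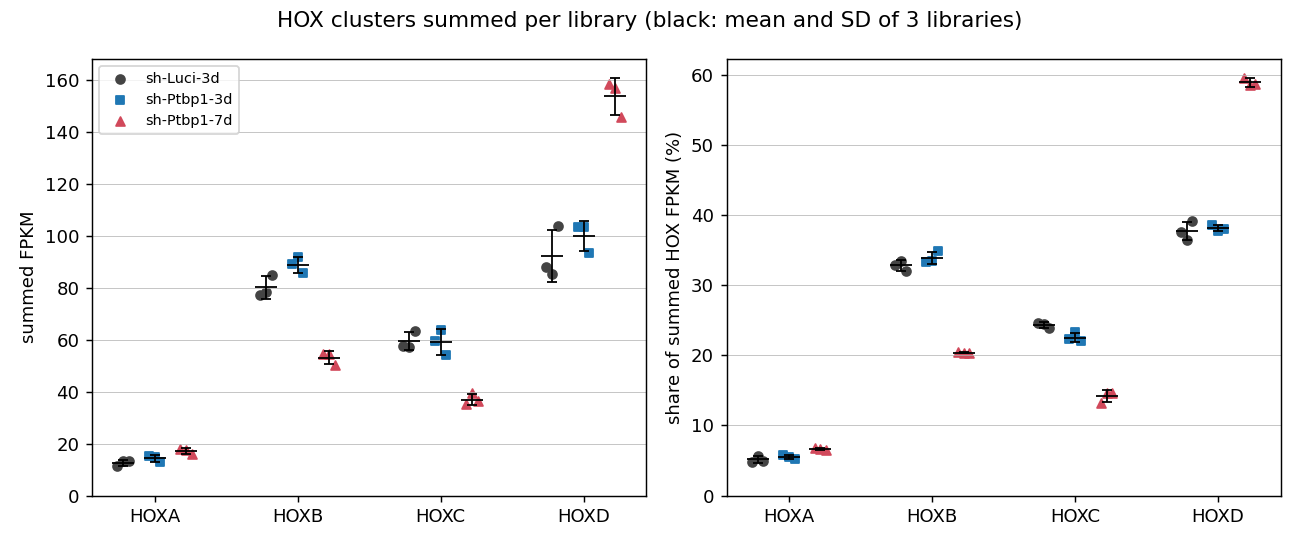
Summed FPKM of each HOX cluster (left) and its share of the summed HOX FPKM in percent (right); each point is 1 library, and black marks are the mean and SD of the 3 libraries of a group. The HOXD share was 58.9% in sh-Ptbp1-7d and 37.7% in sh-Luci-3d, and the HOXB share was 20.4% and 32.8%.

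Antisense transcripts were examined next, since many long noncoding RNAs are made from the opposite strand of HOX clusters. None of 20 listed HOX antisense and noncoding symbols was in the table, but 4 loci assembled from the reads matched such a transcript by its exons. The locus of HOXC13-AS (chr12:53935406-53938694, minus strand), which ends before HOXC13 begins, was at 0.747, 0.917 and 1.18 FPKM with sh-Luci-3d, 0.928, 1.94 and 1.21 FPKM with sh-Ptbp1-3d and 0.505, 0.734 and 0.524 FPKM with sh-Ptbp1-7d (MSTRG.6123). The day 7 libraries were the lowest, -1.04 on the log2 scale against sh-Ptbp1-3d (limma adjusted p = 0.00895, past the FDR in 6 of 18 alternatives). The locus of HOXC-AS3 (chr12:53983943-53984903, minus strand, MSTRG.6127), which ends before HOXC10, was at 0.193, 0 and 0.514 FPKM, 0.696, 0.804 and 0.865 FPKM and 0.150, 0 and 0.134 FPKM. It was highest in sh-Ptbp1-3d, and its log2 fold change of -2.30 at day 7 against that group (limma adjusted p = 0.00768) was past the FDR in 7 of 18 alternatives. Against sh-Luci-3d its libraries overlapped (-0.54, limma adjusted p = 0.472). The loci of HOXD-AS2 (MSTRG.15871) and HOXA11-AS (MSTRG.24674) had log2 fold changes of -0.45 (limma adjusted p = 0.0316) and 0.00 (limma adjusted p = 0.994) and were not called.

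HOX proteins bind DNA together with PBX, MEIS and PKNOX cofactors. Of 11 listed cofactors 10 were tested, and at day 3 none was called. At day 7 against sh-Ptbp1-3d, 4 rose (PBX2, MEIS2, MEIS3 and PKNOX1) and 2 fell, among them PBX3, and against sh-Luci-3d 2 were higher and 2 lower. These 6 and 4 of 10 genes stand beside 35.8% and 35.6% of all features. Without sh-Ptbp1-3d replicate 3 they became 4 and 3, beside 28% and 33.1% of all features. PBX3 was at 9.46, 8.77 and 7.87 FPKM with sh-Luci-3d, 11.7, 7.48 and 10.4 FPKM with sh-Ptbp1-3d and 5.48, 5.59 and 5.62 FPKM with sh-Ptbp1-7d, with every day 7 library below the others (log2 fold change -0.79, limma adjusted p = 0.00127). MEIS3 was at 17.98, 17.5 and 23.7 FPKM, 24.1, 20.6 and 22.99 FPKM and 35.4, 36.1 and 31.8 FPKM, with the day 7 libraries highest (log2 fold change 0.61, limma adjusted p = 0.00168). MEIS2 was the most abundant cofactor, between 99.2 and 153 FPKM, and PKNOX1 was past the FDR in 9 of 20 alternatives.

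Of 35 regulators of chromatin at HOX clusters, all were tested and none was called at day 3. At day 7 against sh-Ptbp1-3d, 9 rose and 3 fell, and against sh-Luci-3d 10 were higher and 3 lower. With 12 and 13 of 35 genes, the list was called about as often as all features (35.8% and 35.6%), so that the count says nothing particular about it. The count was 10 and 14 without sh-Ptbp1-3d replicate 3, beside 28% and 33.1% of all features. On the TPM scale it was 19 against sh-Ptbp1-3d, where the share of all features is not given here. The 3 that fell in both comparisons belong to or assist the Polycomb complex PRC2, which methylates lysine on histone H3. PHF19 was at 23.7, 26.1 and 26.9 FPKM, 27.6, 27.6 and 24.9 FPKM and 11.97, 12.5 and 11.5 FPKM (log2 fold change -1.15 against sh-Ptbp1-3d, limma adjusted p = 1.43e-06). EZH2, the catalytic subunit, was at 27.05, 26.2 and 24.8 FPKM, 27.8, 25.4 and 24.1 FPKM and 17.3, 17.8 and 17.3 FPKM (log2 fold change -0.56, limma adjusted p = 0.000183), and RBBP7 had a log2 fold change of -0.55. For these genes the day 7 libraries lay below all the others.

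Among the regulators that rose were the demethylases that remove the PRC2 mark. KDM6B was at 6.87, 7.10 and 6.68 FPKM, 7.39, 7.35 and 6.18 FPKM and 15.5, 14.9 and 14.4 FPKM (log2 fold change 1.09, limma adjusted p = 5.53e-06), and KDM6A rose by 1.01 on the log2 scale (limma adjusted p = 9.54e-05). PHF1, another PRC2 partner, rose from 19.5, 17.6 and 17.9 FPKM with sh-Ptbp1-3d to 37.3, 34.99 and 35.97 FPKM with sh-Ptbp1-7d (log2 fold change 0.97, limma adjusted p = 4.91e-05). The other genes that rose were JARID2 and MTF2 of PRC2, PCGF2, RING1 and PHC2 of the Polycomb complex PRC1, and KMT2B, a trithorax methyltransferase, with log2 fold changes between 0.43 and 0.78. EED, SUZ12, BMI1, KMT2A and CTCF were not called.

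Of 23 upstream factors and retinoid genes, 13 were tested, none was called at day 3, and at day 7 against sh-Ptbp1-3d 3 rose and 6 fell, and 4 were higher and 6 lower against sh-Luci-3d. Of all features 20.3% rose and 15.5% fell in the first comparison, and 20.6% and 15% in the second. Leaving out sh-Ptbp1-3d replicate 3 gave 8 and 10 called genes of the list, beside 28% and 33.1% of all features. STRA6, the cellular receptor for retinol uptake, was at 60.03, 52.3 and 59.1 FPKM with sh-Luci-3d, 54.8, 58.1 and 52.1 FPKM with sh-Ptbp1-3d and 4.72, 4.11 and 4.47 FPKM with sh-Ptbp1-7d. RARB, the retinoic acid receptor gene that retinoic acid itself induces, was at 49.7, 47.05 and 36.5 FPKM, 40.4, 44.6 and 38.6 FPKM and 4.38, 4.13 and 4.72 FPKM. Both dropped far below every day 3 library, with log2 fold changes of -3.60 (SE 0.0877, limma adjusted p = 1.05e-09) and -3.20 (SE 0.12, limma adjusted p = 1.52e-08). The other retinoid genes that fell were ALDH1A3, which makes retinoic acid (-2.28), DHRS3, which reduces retinaldehyde (-1.85), and CYP26B1, which degrades retinoic acid (-1.23). For RARA the log2 fold change was -0.37 (limma adjusted p = 0.0122) and for RARG 0.32 (limma adjusted p = 0.0256), and neither was called. GDF11, a ligand that promotes posterior HOX genes, was at 3.79, 3.74 and 4.10 FPKM, 4.23, 4.11 and 4.02 FPKM and 2.25, 1.79 and 2.02 FPKM and fell (-0.996, limma adjusted p = 5.20e-05). EGR2, a hindbrain factor that acts on anterior HOX genes, rose from at most 0.0489 FPKM with sh-Ptbp1-3d to 0.507, 0.930 and 0.248 FPKM, and RXRB rose as well (0.55). The CDX genes CDX1, CDX2 and CDX4, which drive posterior HOX genes in the embryo, were listed at 0 in every library.

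**Figure D4:**
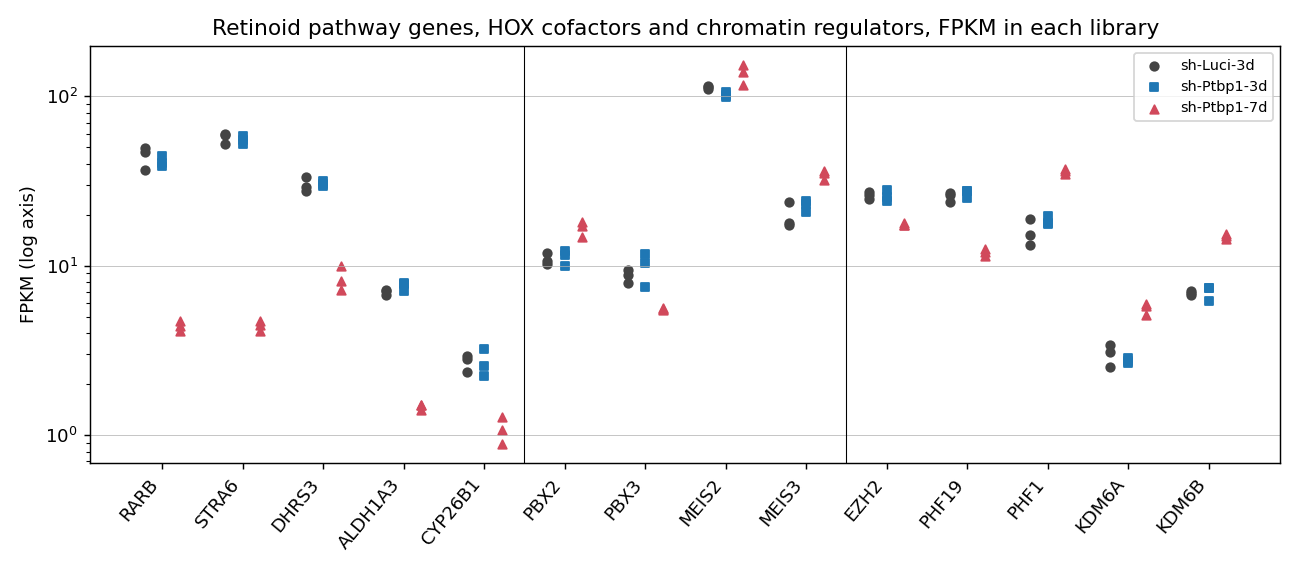
FPKM (log axis) in the 9 libraries of 5 retinoid pathway genes (left), 4 HOX cofactors (middle) and 5 chromatin regulators (right), chosen among the genes called at day 7; each point is 1 library. RARB and STRA6 lie at 36.5 FPKM or more at day 3 and at 4.72 FPKM or less in sh-Ptbp1-7d.

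The neighbours of the clusters were compared to see whether non-HOX genes on either side moved with them. Of 25 flanking genes 19 were tested, none was called at day 3, and at day 7 against sh-Ptbp1-3d 4 rose and 3 fell, and 4 were higher and 4 lower against sh-Luci-3d. These 7 and 8 of 19 genes are near the 35.8% and 35.6% of all features. Without sh-Ptbp1-3d replicate 3 they became 4 and 7, beside 28% and 33.1% of all features. Beside HOXA, SKAP2 (97.8 kb away) fell to 10.3, 10.1 and 8.58 FPKM from 20.3, 21.3 and 20.2 FPKM (log2 fold change -1.09, limma adjusted p = 2.32e-05). Beside HOXB, CALCOCO2 and UBE2Z rose (0.72 and 0.32) while HOXB genes fell. Beside HOXC, CBX5 fell (-0.996) and CALCOCO1 rose (0.70). Beside HOXD, MTX2, 78.5 kb away, was not called (0.01, limma adjusted p = 0.959), and LNPK, 90.1 kb away on the other side, fell (-0.56, past the FDR in 11 of 20 alternatives) while HOXD genes rose. ATF2, 925 kb away, rose with them (0.57, limma adjusted p = 0.0069, past the FDR in 10 of 20 alternatives). The even-skipped genes at the clusters' edges were silent or nearly so, with EVX1 listed at 0 and EVX2 at no more than 0.0416 FPKM.

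Forebrain and midbrain patterning genes were examined because the forebrain leaves the HOX clusters silent, although not all of those listed are genes of the cortex. Of 18 listed genes 9 were tested and none was called at day 3. At day 7, 4 were called against sh-Ptbp1-3d and 3 against sh-Luci-3d, beside 35.8% and 35.6% of all features. The counts were the same without sh-Ptbp1-3d replicate 3, beside 28% and 33.1%. GBX2, a gene of the anterior hindbrain, rose from 0.536, 0.466 and 0.587 FPKM with sh-Ptbp1-3d to 2.24, 2.46 and 2.98 FPKM with sh-Ptbp1-7d (log2 fold change 2.08, limma adjusted p = 9.12e-06), EN1 rose by 1.33 and IRX3 by 0.96 on the log2 scale, and against sh-Luci-3d EN1 missed the FDR (limma adjusted p = 0.0229). OTX2, EN2 and IRX2 were listed at 0 in every library.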

How the data were processed

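The authors infected U251 cells, extracted total RNA with TRIzol and sequenced 9 libraries on Illumina HiSeq. They deposited FPKM per gene and library, and a table of other values (coordinates) for loci assembled by StringTie. HISAT2 and GRCh38 are named in the submitters' processing notes, and the counting program, its annotation and its use of strand are not given in the sources used here. The entries are 19932 symbols, 97.6% of them found in GENCODE v29 (used for positions), and 2363 assembled loci. The deposited FPKM values are not read counts, so no count test was used.

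From these values, log2(FPKM + 0.1) was taken for the 15551 features that averaged at least 0.1 FPKM. A limma model (version 3.58.1, R 4.3.3) of the 3 groups with an intensity trend was fitted to all 9 libraries, with Benjamini-Hochberg adjustment over all features. An exact permutation test of 3 libraries against 3 allows no two-sided p below 0.1. Samples were grouped by their labels. The thresholds were taken from the study (FDR 0.05 at day 3, 0.01 from day 3 to day 7, each with a fold of 2), but genes were called here on the FDR alone, with the fold as an additional count, and the comparison of sh-Ptbp1-7d with sh-Luci-3d was given 0.01 as well. HOX genes are given with values per library where a group mean reached 1 FPKM or a gene was called. Some genes are not reported here, although counts, medians and sums include them. Context genes are named when past the FDR and fold, or for their role. The genes and lists were chosen with earlier results of these data known. Alternatives were pseudocounts of 1 and 0.01, other filters, TPM, median-ratio and quantile scaling, assembled loci left out, the compared groups alone, no trend, a replicate block and leaving out each library. Promoter windows came from RefSeq (GRCh38.p14), with no window for 19 HOX genes. Plots used matplotlib 3.10.9 under Python 3.11.15.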

Additional observations from a re-analysis of the deposited data

How the results depend on the processing

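In the day 7 comparisons, 11 of 17 HOX genes called against sh-Ptbp1-3d and 11 of 18 called against sh-Luci-3d were past the FDR in every alternative run, and none of the called genes reversed. Past both FDR and fold, a pseudocount of 1 left 2 HOX genes (HOXB9 and HOXD3) in the comparison with sh-Ptbp1-3d and 3 (with HOXD9) against sh-Luci-3d. With a mean of at least 1 FPKM, the HOX genes tested had median log2 fold changes of -0.39 and -0.16, where fewer low genes are tested, and the median against sh-Luci-3d was 0.026 after quantile normalization. TPM gave 19 chromatin regulators against sh-Ptbp1-3d. Flanking genes numbered 4 and 5 without the intensity trend, and 5 against sh-Luci-3d with the compared groups alone. Causes other than those named were not tested. The counts in this section stand without the share of all features in the same run, and say nothing particular about a list.

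Leaving out each library in turn gave 11 to 18 called HOX genes against sh-Ptbp1-3d (11 without sh-Ptbp1-3d replicate 2), 0 to 1 at day 3, and a median of 0.18 to 0.42 against sh-Luci-3d (0.42 without sh-Luci-3d replicate 3). Flanking genes ranged from 4 to 8 and from 5 to 11 in the day 7 comparisons, with the lowest count of 4 without sh-Ptbp1-3d replicates 2 or 3 or sh-Ptbp1-7d replicates 1 or 2, and that of 5 without sh-Ptbp1-7d replicates 1 or 2. At day 3, cofactors ranged from 0 to 1, chromatin regulators from 0 to 3 and flanking genes from 0 to 2, each above 0 only without sh-Luci-3d replicate 3. Uncalled log2 fold changes that reversed with a library left out, with their range over the libraries left out, were at day 3 HOXB2 (-0.11 to 0.37) and HOXB6 (-0.085 to 0.22), both negative without sh-Luci-3d replicate 2, HOXB9 (-0.15 to 0.22, and -0.0603 without sh-Ptbp1-3d replicate 1), HOXC5 (-0.23 to 0.078), HOXC10 (-0.069 to 0.030, positive without sh-Luci-3d replicate 3) and HOXC13 (-0.16 to 0.067). At day 7 against sh-Ptbp1-3d it was HOXA11 (-0.25 to 0.047), and HOXD8 reversed after quantile normalization (-0.024).

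The labels give all groups the numbers 1 to 3, but same-numbered libraries did not deviate together (correlations of -0.032 to 0.051 over 9 pairs, 0 above 0.1, and 3 of 9 libraries correlated best with their own number). With the replicate block, the calls numbered 12 against sh-Ptbp1-3d, 16 in the comparison of sh-Ptbp1-7d with sh-Luci-3d, and 0 at day 3. The antisense list gave no alternative values because none of its symbols is in the table. The unknown depth limits what can be said of the genes listed at 0.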
